A study of Rattus norvegicus with 484 samples.

Results

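The comparison described here set rats given retinoic acid at 25 mkd (the dose unit as the labels write it) against rats given vehicle at 0 mkd, in the muscle that the labels call Quad. Arrays were chosen by their labels: every Quad array of retinoic acid or of single vehicle rats on days 2 to 6, except 3 put in doubt by an earlier reading of these data. That gave 78 of the 484 arrays in the series, 17 of retinoic acid and 61 of vehicle. Days 2, 3, 4, 5 and 6 held 2, 4, 4, 3 and 4 retinoic acid rats, and 14, 8, 14, 15 and 10 vehicle rats. Each 2-colour array set the RNA of 1 rat (Cy5) against a pool of 11 to 15 vehicle rats of the same muscle and day (Cy3), so every value is a log2 ratio of the rat to its pool, with the log base and the direction inferred, since the labels do not state them. The labels give no strain, sex, age or route of dosing. The series compared agonists of the PPAR receptors, which switch on genes of fat use, with retinoic acid and vehicle in muscles and liver.

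Retinoic acid is the active form of vitamin A. It binds the receptors RARA, RARB and RARG, which pair with RXR receptors on DNA and raise transcription of their targets when the ligand is bound. Cells keep its level in check through enzymes of the CYP26 family, which oxidise it, and through LRAT, which turns retinol into storage esters. In many tissues CYP26 enzymes, LRAT and RARB are themselves targets of the receptors.

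Elements that the receptors are known to bind were searched in RefSeq promoters of the rat build GRCr8, because the genes that rose most with retinoic acid belong to the pathway that clears and senses it. The element DR5 is a pair of hexamers in the same direction with 5 bases between them, and DR2 is the same with 2. The hexamers searched, on both strands, were the consensus AGGTCA and its common variants: a form written AGTTCA, another form written GGGTCA, and a form that combines both changes, written GGTTCA. DR5 occurred in 0.382% of the 33469 promoters in the table, DR2 in 0.17% and a single hexamer in 44.4%. Capitals mark the hexamers. Of the 20 genes with the largest rises and falls, 18 had a promoter in the table: 1 held a DR5, none a DR2 and 9 a single hexamer. Cyp26a1, the 1 with a DR5, held it at positions -92 to -76 from the annotated start, on the strand opposite to the gene. Rarb held 1 at positions 25 to 41 after the start, and 30 bases around it are shown. No DR5, DR2 or single hexamer was found in the 250 bases before the start of Cyp26b1 or of Lrat. A match is a description of letters only, and no match says only that these letters are not in this window. In GRCr8 the sequences lie at chr1:244883572-244883821, plus strand (Cyp26a1), chr15:11336409-11336438, plus strand (Rarb), chr4:118616177-118616426, minus strand (Cyp26b1) and chr2:170571213-170571462, minus strand (Lrat).
Cyp26a1: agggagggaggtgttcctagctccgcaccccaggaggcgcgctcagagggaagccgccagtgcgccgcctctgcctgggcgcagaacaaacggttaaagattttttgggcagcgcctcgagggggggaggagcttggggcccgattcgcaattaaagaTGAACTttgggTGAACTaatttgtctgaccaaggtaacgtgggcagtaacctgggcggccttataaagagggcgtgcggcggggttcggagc
Rarb: cgggaagGGTTCAccgaaAGTTCActcgca
Cyp26b1: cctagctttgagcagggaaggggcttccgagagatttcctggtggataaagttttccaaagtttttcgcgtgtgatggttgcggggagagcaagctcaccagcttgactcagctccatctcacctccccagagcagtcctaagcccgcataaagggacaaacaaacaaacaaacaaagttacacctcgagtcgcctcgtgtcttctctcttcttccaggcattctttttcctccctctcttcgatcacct
Lrat: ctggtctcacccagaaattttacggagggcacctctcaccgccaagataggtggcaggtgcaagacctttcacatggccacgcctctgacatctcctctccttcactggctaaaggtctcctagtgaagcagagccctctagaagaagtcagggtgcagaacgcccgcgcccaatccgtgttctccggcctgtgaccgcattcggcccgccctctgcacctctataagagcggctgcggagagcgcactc

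3 retinoic acid arrays stood apart from the other 14 and need to be known before the results. The Quad array labelled rat 1316 (day 3) lay near the pool for the genes that moved most: its log2 ratios were 0.48 for Cyp26b1, 0.08 for Lrat, -0.08 for Cyp26a1 and -0.53 for Rbp7. The soleus array of the same rat had 4.30 for Cyp26b1 and -2.19 for Rbp7, and its liver array had 4.92 for Cyp26b1. Among the 133 Quad arrays of vehicle and of the other compounds, the highest Cyp26b1 ratio was 1.45, below the other 16 retinoic acid arrays and above that of rat 1316. The array of rat 1328 (day 6) had 1.61 for Cyp26b1 and 0.90 for Lrat, the next lowest, and its soleus array was also the lowest of 20 for both genes, at 2.19 and 0.33. The array of rat 1325 (day 6) had high ratios of adipocyte markers, with a median of 1.00 over 11 markers against a median of -0.14 over the 17 arrays, and it was the only retinoic acid array with Rbp7 above the pool. All 3 stay in the values below, and values without the arrays of rats 1316 and 1325 are given where a call changed and for some of the genes that moved most. Leaving out 1316 added the calls of Stra6 and Rdh10 among the named genes, and leaving out 1325 changed none of their calls.

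The 3 arrays left out by the rule were those of retinoic acid rat 1321 and vehicle rats 1042 and 1068. Over 15 hepatocyte markers the array of rat 1321 had a median log2 ratio of 2.31 and that of rat 1042 had 1.35, against a median of -0.32 over the 78 arrays. The array of rat 1068 had a wide spread, with a median absolute deviation of 0.328 log2 units over all probes. The same measure ran from 0.081 to 0.145 on the 17 retinoic acid arrays and from 0.067 to 0.259 on the 61 vehicle arrays. The median ratio of 6 skeletal muscle fibre markers ran from -0.15 to 0.18 with retinoic acid and from -0.48 to 0.22 with vehicle.

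Retinoic acid moved few genes far in quad. Of 18419 features tested (genes, and probes that name no single gene), 439 (2.38%) differed from vehicle at an adjusted p under 0.05 in limma's moderated test, with the 5 days weighted equally. 127 (0.69%) were higher and 312 (1.69%) were lower. 363 of the 439 had the same sign on each of the 5 days, which is partly built in, since calls rest on the mean of those days. Only 3 were higher by more than 1 log2 unit, namely the retinoid genes Cyp26b1, Lrat and Cyp26a1, and only Rbp7 was lower by more than 1. The median size of the called differences was 0.25 log2 units, and the median over all features was 0.003. For no feature did the retinoic acid and vehicle arrays fail to overlap (0 of 18419 in either direction). Without the array labelled rat 1316 the count was 531, and without rat 1310, which leaves 1 retinoic acid rat on day 2, it was 304.

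**Figure D1:**
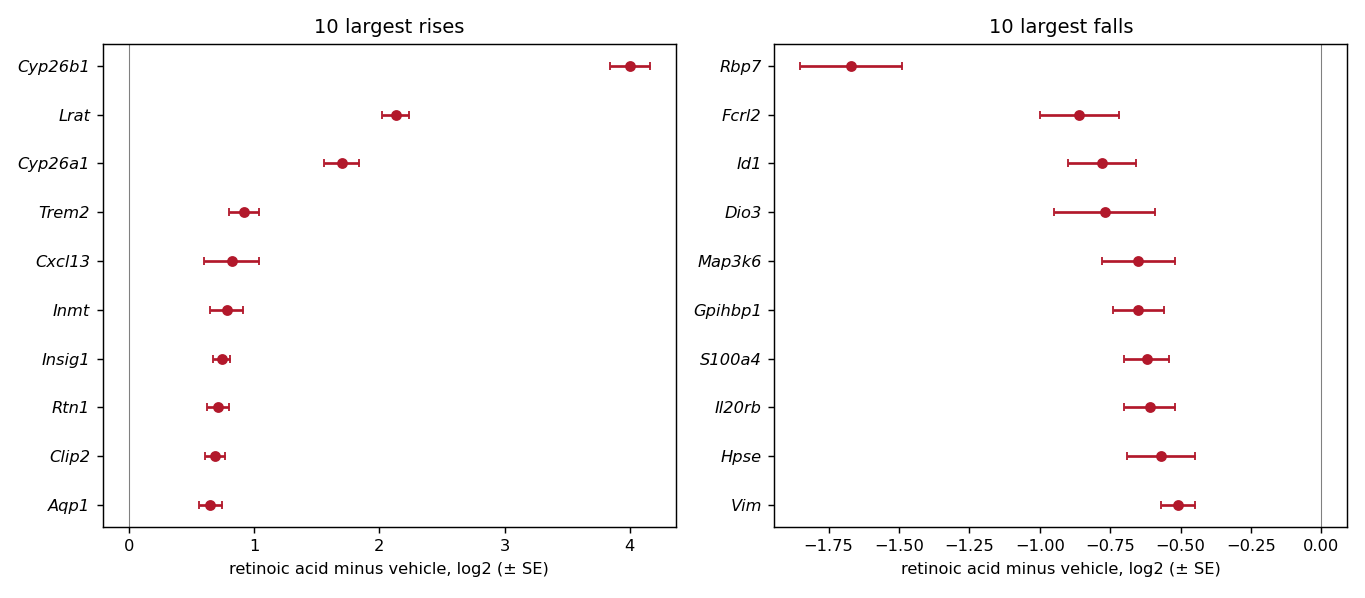
Log2 difference of retinoic acid minus vehicle in quad (mean of 5 days, horizontal axis, bars ± SE) for the 10 largest rises and the 10 largest falls among named genes called with the same sign on each day. Cyp26b1 stood at 4.00 and Rbp7 at -1.67, and the other genes past Cyp26a1 lay between -0.86 and 0.92.

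Among the genes that handle retinoids, those for breakdown and storage rose and a binding protein fell. Cyp26b1, the retinoic acid hydroxylase of many tissues outside the liver, had log2 ratios of 0.48, 4.27 and 4.91 on the retinoic acid arrays (lowest, median and highest of 17), against -0.90, -0.01 and 0.71 on the vehicle arrays (61). 16 of the 17 lay above every vehicle array, and the exception was the array labelled rat 1316. The difference was 4.00 ± 0.16 (SE), a ratio of 16.0, with an adjusted p of 5.9e-33 in limma. Its probes gave 3.24 and 4.77. Without the array labelled rat 1316 the difference was 4.18.

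Lrat, the enzyme that esterifies retinol for storage, had 0.08, 2.17 and 3.16 with retinoic acid, against -0.47, 0.08 and 0.54 with vehicle. Again 16 of 17 retinoic acid arrays lay above all vehicle arrays. The difference was 2.13 ± 0.11 (adjusted p 2.2e-25, limma). Cyp26a1, the inducible hydroxylase best known from liver and embryo, had -0.08, 1.37 and 3.67 with retinoic acid, against -0.77, -0.06 and 1.92 with vehicle. Only 6 of 17 arrays lay above every vehicle array, since 1 vehicle rat of day 2 reached 1.92, and the difference was 1.70 ± 0.14 (adjusted p 1.8e-15, limma). Cyp26a1 was less even over days, with differences of 2.61, 1.04, 2.70, 1.47 and 0.71 on days 2 to 6, whereas Cyp26b1 had 4.41, 3.18, 4.48, 4.24 and 3.69. Lrat stayed between 1.80 on day 3 and 2.60 on day 4.

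Rbp7, a cellular retinol-binding protein known from adipose tissue and capillary endothelium, had -2.77, -1.93 and 0.42 with retinoic acid, against -1.21, -0.08 and 1.62 with vehicle. 14 of 17 retinoic acid arrays lay below all vehicle arrays. The exceptions were the arrays labelled rats 1316 (-0.53) and 1325 (0.42) and 1 of day 4 (-1.10). The difference was -1.67 ± 0.18 (adjusted p 8.7e-11, limma), and it ran from -1.83 to -1.42 over the 5 days. Without the array of rat 1325 it was -1.80.

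**Figure D2:**
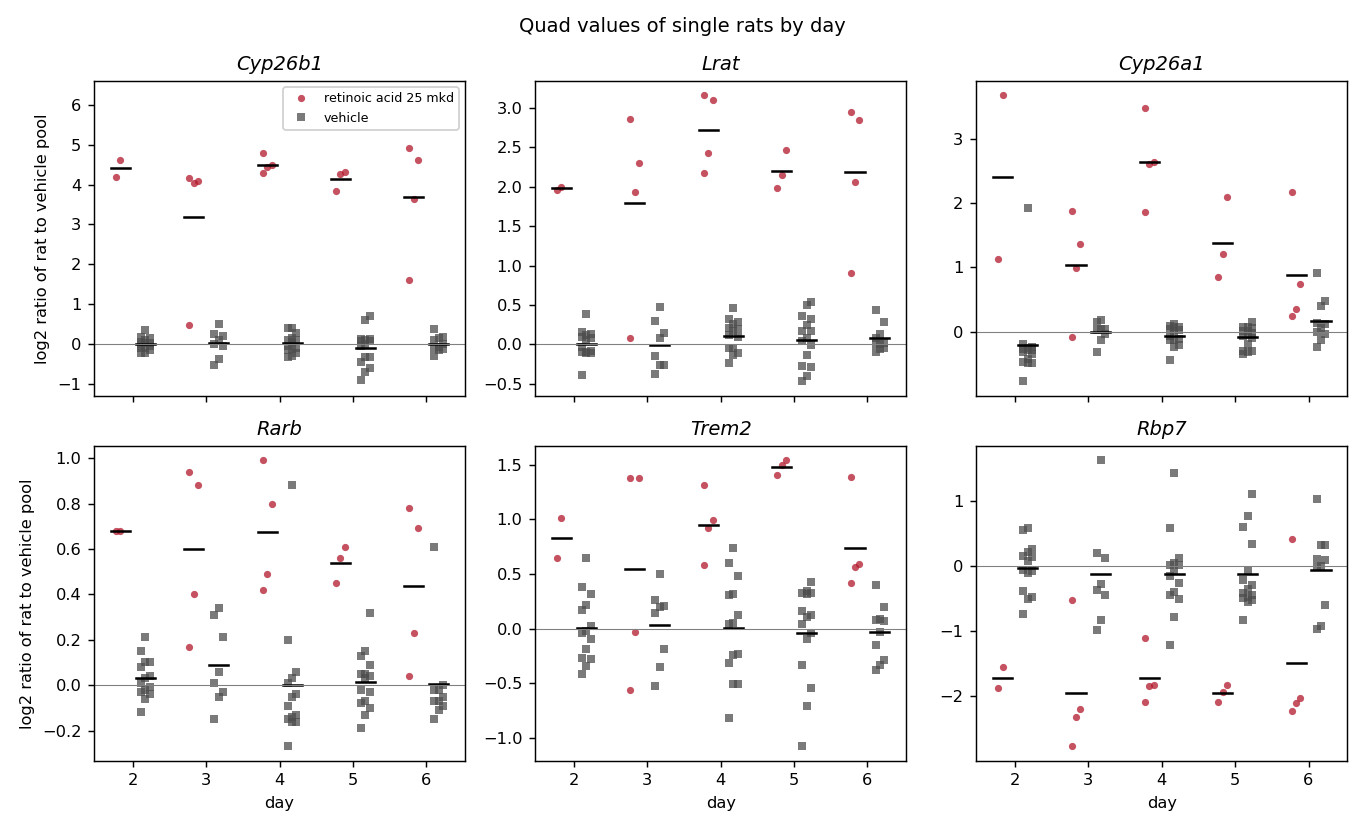
Log2 ratio of each rat's quad RNA to the vehicle pool of its day (vertical axis) by day (horizontal axis), with retinoic acid rats as circles at the left of each day, vehicle rats as squares at the right, and bars at the group means. For Cyp26b1 the retinoic acid rats sat at or above 1.61 except the array labelled rat 1316 at 0.48, and for Rbp7 they sat at or below -0.53 except rat 1325 at 0.42.

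Of the 26 genes of retinoid metabolism and transport tested, these 4 were the only ones called, 3 higher and 1 lower. The median difference of the list was 0.001, and over all features 0.69% were called higher and 1.69% lower. The serum retinol carrier Rbp4, a gene of liver and fat, differed by -0.62 ± 0.26 but varied widely among rats (adjusted p 0.27, limma). The retinol uptake receptor Stra6 had 0.13 ± 0.04 (adjusted p 0.064, limma) and was called without the array labelled rat 1316 (0.15, adjusted p 0.017). The retinol dehydrogenase gene Rdh10 had -0.09 ± 0.03 (adjusted p 0.082, limma) and was also called without it (-0.10, adjusted p 0.04). Crabp2, which carries retinoic acid to the nucleus, had 0.04 ± 0.03 (adjusted p 0.69, limma). Dhrs3 was not matched to a probe name.

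Among 15 receptors and cofactors 2 were called, both higher, beside 0.69% higher over all features, and the list's median was 0.061. Rarb, the receptor that is itself a target in many cells and whose DR5 letter match is printed above, had 0.04, 0.61 and 0.99 with retinoic acid, against -0.27, -0.02 and 0.88 with vehicle. The groups overlapped, with 3 retinoic acid rats at 0.04 to 0.23 and vehicle rats of days 4 and 6 at 0.88 and 0.61, and the difference was 0.56 ± 0.06 (adjusted p 8.5e-11, limma). Its 2 probes disagreed in size, at 0.94 and 0.18, so the gene value is a mean of unequal parts. Rarg differed by 0.30 ± 0.06 (adjusted p 0.0003, limma), with -0.32, 0.25 and 0.59 against -0.78, 0.01 and 0.29. Rara had -0.10 ± 0.05 (adjusted p 0.47, limma), and the partner receptors Rxra, Rxrb and Rxrg had 0.02, 0.08 and 0.08, with none called.

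Of 28 genes known to respond to retinoic acid in other cells, 2 rose and 2 fell, with a list median of 0.035. The shares over all features were 0.69% higher and 1.69% lower. Tgm2, the transglutaminase that crosslinks proteins, differed by 0.60 ± 0.07 (adjusted p 6.6e-09, limma) and Plat, tissue plasminogen activator, by 0.56 ± 0.08 (adjusted p 7.1e-07, limma). Both had positive differences on each day, from 0.42 to 0.77 for Tgm2 and from 0.33 to 0.68 for Plat. The transcription factor gene Klf4 fell by 0.36 on the log2 scale and the receptor tyrosine kinase gene Ret by 0.34, and neither passed without day 2 (adjusted p 0.071 and 0.068, limma). The probes of Ret gave 0.00 and -0.68. Hoxa5, a homeobox gene, had 0.18 ± 0.08 and was not called (adjusted p 0.25, limma).

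Trem2, a lipid receptor of macrophages, had -0.56, 0.99 and 1.54 with retinoic acid, against -1.08, 0.04 and 0.74 with vehicle. 10 of 17 arrays lay above all vehicle arrays, and the difference was 0.92 ± 0.12 (adjusted p 2.5e-08, limma). Insig1, which holds back sterol synthesis, was higher than the vehicle mean of the day in all 17 rats, with 0.13, 0.69 and 1.52 against -0.43, -0.03 and 0.39. 14 of 17 retinoic acid arrays lay above all vehicle arrays and the difference was 0.74 ± 0.07 (adjusted p 9.7e-12, limma). It was the only one of 19 genes of fatty acid and sterol synthesis that was called, and the list's median was -0.037. Over all features 2.38% were called, so a single call says little about the list.

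Cxcl13, a chemokine that draws B cells, differed by 0.82 ± 0.22 (adjusted p 0.017, limma) with a wide spread in both groups. It had -0.62, 0.75 and 2.41 with retinoic acid, against -1.58, -0.28 and 1.68 with vehicle, and day 2 showed no difference (0.00). Leaving out single arrays took its adjusted p up to 0.12. Inmt, which methylates indoleamines, differed by 0.78 ± 0.13, the neuronal reticulon gene Rtn1 by 0.71 ± 0.09, the microtubule linker gene Clip2 by 0.69 ± 0.08 and the water channel gene Aqp1 by 0.65 ± 0.09. Each of these 4 was higher than the vehicle mean of its day in 15 or 16 of 17 rats, with adjusted p from 4.6e-05 to 3.2e-09 (limma). Ncam1, a cell adhesion gene that muscle re-expresses when denervated, was the only called gene of 19 for myogenesis and the neuromuscular junction, at 0.39 ± 0.05. Its day 3 difference was 0.01, against 0.29 to 0.71 on the other days. The share called over all features was 2.38%.

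Falls outnumbered rises, 312 against 127, but that balance depended on the setting. Without day 2 there were 146 rises and 183 falls. By the ratio to the pool alone there were 838 rises and 735 falls. That last setting has no single vehicle rats to cancel a difference between the Cy5 and Cy3 channels. Id1, an inhibitor of differentiation factors, had -1.86, -0.74 and -0.09 with retinoic acid, against -1.06, 0.00 and 1.42 with vehicle. All 17 rats lay below the vehicle mean of their day, and the difference was -0.78 ± 0.12 (adjusted p 4.9e-06, limma). S100a4, a calcium-binding protein of motile cells, had -1.01, -0.60 and -0.02 against -0.42, -0.04 and 0.69. 12 of 17 retinoic acid arrays lay below all vehicle arrays and the difference was -0.62 ± 0.08 (adjusted p 1.2e-08, limma). Vim, the intermediate filament of mesenchymal cells, fell by 0.51 on the log2 scale (SE 0.06, adjusted p 7.9e-09, limma).

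Gpihbp1, which anchors lipoprotein lipase to the capillary wall, had -1.22, -0.62 and -0.12 with retinoic acid, against -0.86, -0.05 and 0.74 with vehicle. The difference was -0.65 ± 0.09 (adjusted p 7e-07, limma), with all 17 rats below the vehicle mean of their day. Dio3, which inactivates thyroid hormone, differed by -0.77 ± 0.18 (adjusted p 0.0067, limma), and its adjusted p rose to 0.085 when single arrays were left out. Fcrl2 (-0.86 ± 0.14), an Fc receptor-like gene, Map3k6 (-0.65 ± 0.13), a kinase of stress signalling, Il20rb (-0.61 ± 0.09), a cytokine receptor chain, and Hpse (-0.57 ± 0.12), which cuts heparan sulfate, complete the 10 largest falls. Each of these 4 was lower than the vehicle mean of the day in 16 of 17 rats.

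Genes of fuel use, contraction and wasting gave few or no calls. None of 22 genes of mitochondrial beta-oxidation, 15 of oxidative phosphorylation and 16 of glycolysis was called. Nor was any of 18 PPAR target and fuel switching genes, a list without the called genes Rbp7, Gpihbp1, Fabp4 and Mgll. Those called genes all rose against vehicle with rosiglitazone and with bezafibrate in quad. No call came among 15 genes of atrophy, 20 glucocorticoid-responsive, 22 of heat shock and related stress and 14 clock genes. The 10 slow fibre, 19 cell cycle and 12 ribosomal protein genes had none either. The medians of all these lists lay between -0.087 and 0.091. Over all features 2.38% were called, so lists of 10 to 22 genes could hold few calls or none at that share. The 1 fast fibre gene tested was not called either. Pdk4, which blocks the entry of pyruvate into the citric acid cycle, came nearest, at 0.45 ± 0.14 (adjusted p 0.067, limma). Its retinoic acid values were -0.52, 0.37 and 1.58, against -1.64, -0.11 and 0.90 with vehicle, and its difference was 1.01 on day 3 and 0.10 on day 6. Ucp3, a mitochondrial carrier, had 0.30 ± 0.11 (adjusted p 0.19, limma), and Angptl4, an inhibitor of lipoprotein lipase, 0.23 ± 0.12 (adjusted p 0.43, limma). Cpt1b, the muscle gate of fatty acid entry into mitochondria, had 0.03 ± 0.04, Cd36, a fatty acid transporter, -0.08 ± 0.10, Ppard 0.01 ± 0.03 and the coactivator gene Ppargc1a -0.15 ± 0.07, none called.

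Among 17 genes of fatty acid uptake and storage, Mgll was the only one called higher and Gpihbp1 the only one called lower. The list median was 0.022, and over all features 0.69% were called higher and 1.69% lower. Mgll, monoacylglycerol lipase, differed by 0.41 ± 0.08 (adjusted p 0.00027, limma). Fabp4, which carries fatty acids inside fat cells and capillary cells, fell by 0.44 on the log2 scale (SE 0.11, adjusted p 0.014, limma), and by 0.54 without the array of rat 1325 with high adipocyte markers. It did not pass without day 2 (adjusted p 0.065, limma), and leaving out single arrays took its adjusted p up to 0.1. The atrophy ligase gene Trim63 (0.06 ± 0.17), the slow myosin gene Myh7 (-0.13 ± 0.12), the clock genes Bmal1 (0.38 ± 0.24) and Per1 (-0.32 ± 0.15), Mt1 (0.05 ± 0.06) and Cdkn1a (0.11 ± 0.05) were not called. Fbxo32 was not matched to a probe name, and Myh4 had values on only 7 retinoic acid and 14 vehicle arrays and was not tested.

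Some genes of antigen presentation, matrix and chemokines fell, by small amounts. Of 24 genes of interferon response and antigen presentation 4 fell: the class II genes RT1-Da (-0.28 ± 0.05) and RT1-Ba (-0.21 ± 0.06), their chaperone Cd74 (-0.38 ± 0.08) and Oas1a (-0.46 ± 0.13), which senses double-stranded RNA. Over all features 1.69% were lower. The probes of RT1-Da gave -0.05 and -0.50. Leaving out single arrays took the adjusted p of RT1-Ba up to 0.13, of Oas1a to 0.17 and of Ccl11 to 0.09. Of 31 matrix genes 5 fell: the collagen VI gene Col6a3 (-0.33 ± 0.07), the protease inhibitor gene Timp1 (-0.22 ± 0.05), the laminin gene Lama2 (-0.25 ± 0.06), the fibrillin gene Fbn1 (-0.38 ± 0.10) and the proteoglycan gene Dcn (-0.41 ± 0.11). The list medians were -0.022 and -0.053, and without day 2 the counts were 2 of 24 and 3 of 31. Of 23 chemokine, cytokine and acute phase genes Cxcl13 rose and Il18 (-0.14 ± 0.03) and Ccl11 (-0.50 ± 0.14), a chemokine of eosinophils, fell. The probes of Il18 gave 0.04 and -0.32, and neither fall passed without day 2 (adjusted p 0.45 and 0.1, limma).

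Markers of cells other than fibres moved beside these genes. Their counts stand beside shares of 1.69% lower and 0.69% higher over all features. Of 17 macrophage and leukocyte markers 6 fell and none rose: Mrc1 (-0.45 ± 0.09), Lyz2 (-0.50 ± 0.10), Cd74, Laptm5 (-0.23 ± 0.06), C1qa (-0.26 ± 0.07) and Aif1 (-0.17 ± 0.05), while Cd68 (-0.03) and Cd163 (-0.01) were not called. The array medians of the 17 markers ran from -0.51 to 0.16 with retinoic acid and from -0.35 to 0.20 with vehicle. The list median was -0.46 on day 2 and -0.05, -0.23, 0.01 and -0.08 on days 3 to 6, and without day 2 none of the 17 was called. Of 12 fibroblast markers Fbn1 and Dcn fell, the array medians ran from -0.80 to 0.35 with retinoic acid and from -0.79 to 0.55 with vehicle, and none was called without day 2. Dcn read -1.50 and -1.61 in the 2 retinoic acid rats of day 2, and its difference was -1.48 on day 2 and 0.36 on day 5. In whole muscle, fewer cells of a type and less RNA per cell cannot be told apart, and the part of these markers in the other falls was not tested.

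Some vessel and mast cell genes were lower on each of the 5 days, where 1.69% of all features were called lower. The mast cell proteases Tpsab1 (-0.36 ± 0.06) and Cma1 (-0.48 ± 0.09) were the 2 called of 10 mast cell markers. The endothelial genes Ramp2 (-0.38 ± 0.07), a receptor partner, and Tek (-0.21 ± 0.04), the angiopoietin receptor, were the 2 called of 12. The pericyte genes Cspg4 (-0.32 ± 0.06) and Rgs5 (-0.18 ± 0.04) were the 2 called of 8 smooth muscle and pericyte markers. All 6 were also called without day 2. Their array medians ran from -0.19 to 0.07 with retinoic acid and from -0.18 to 0.24 with vehicle for mast cells. For endothelium they ran from -0.36 to 0.08 with retinoic acid and from -0.38 to 0.67 with vehicle, and for smooth muscle and pericytes from -0.30 to 0.10 with retinoic acid and from -0.24 to 0.26 with vehicle. The list medians were -0.013 for mast cells, -0.050 for endothelium and -0.080 for smooth muscle and pericytes. Positive differences were seen for 2 of 10, 3 of 12 and 2 of 8 of these markers. Cd93, a gene of endothelium and myeloid cells outside these lists, rose by 0.44 ± 0.08 (adjusted p 0.00014, limma). Of 11 adipocyte markers only Fabp4 was called. None of the 10 lymphocyte, 8 red blood cell, 10 nerve, 15 hepatocyte, 5 satellite cell and 6 fibre markers was called.

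**Figure D3:**
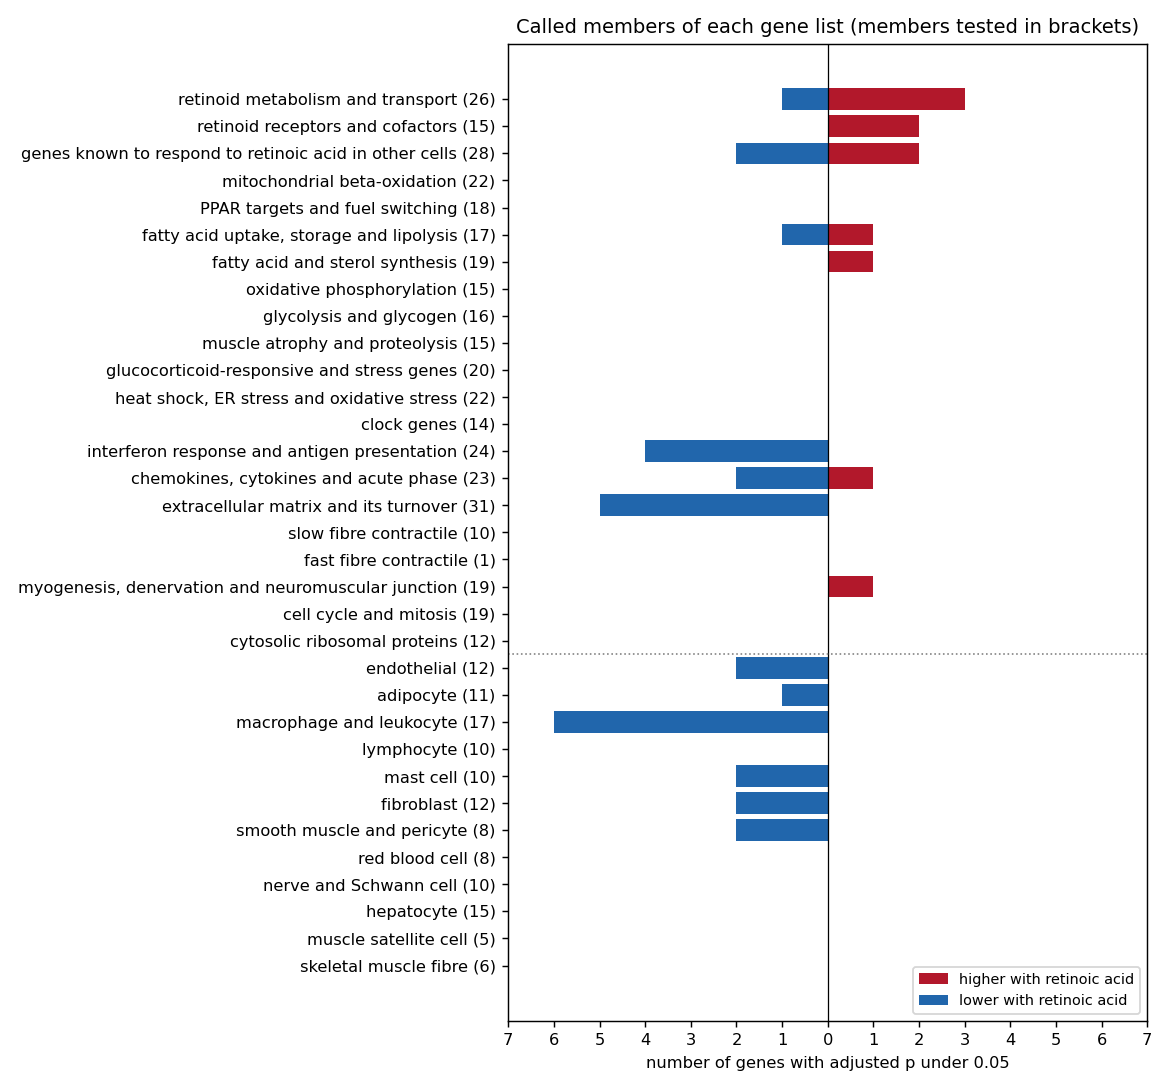
Number of genes called at an adjusted p under 0.05 (horizontal axis) in each gene list and, below the dotted line, each cell marker list, to the right when higher with retinoic acid and to the left when lower, with the number tested in brackets. The calls were few in each list, at most 6 (macrophage and leukocyte markers). Of the metabolic, stress, clock, contractile, cell cycle and ribosomal lists with more than 1 gene tested, 11 had none. Over all features 2.38% were called.

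Single days, with 2 to 4 retinoic acid rats each, gave few calls. Day 2 had 65 called features (0.353%), 22 higher (0.119%) and 43 lower (0.233%). Day 3 had 31 (0.168%), 20 higher (0.109%) and 11 lower (0.0597%), and day 4 had 121 (0.657%), 53 higher (0.288%) and 68 lower (0.369%). Day 5 had 16 (0.0869%), 15 higher (0.0814%) and 1 lower (0.00543%), and day 6 had 4 (0.0217%), all higher. A slope over the 5 days was tested to ask whether the difference from vehicle grew or shrank with time. It called no feature with limma (0% of 18419, lowest adjusted p 0.098), while 1397 had an unadjusted p under 0.05, and array weights called 146. The 10 slow fibre genes had median differences of 0.96 on day 2 and of -0.40, -0.06, -0.29 and -0.56 on days 3 to 6, with no gene called for the slope.

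Against rosiglitazone, an agonist of PPARG that drives fat cell genes, retinoic acid was compared within days. The values against vehicle given beside each direct difference share the vehicle arrays. The doses differ (25 mkd retinoic acid in 17 rats, 100 mkd rosiglitazone in 16 rats). 2531 of 18426 features (13.7%) differed, 1207 higher (6.55%) and 1324 lower (7.19%) with retinoic acid. The largest difference was in Rbp7, at -5.35 ± 0.22 (adjusted p 3.8e-15, limma). Against vehicle, Rbp7 stood at -1.67 ± 0.18 with retinoic acid and at 3.67 ± 0.16 with rosiglitazone, so it lay on opposite sides of vehicle. Gpihbp1 had the same form, with -0.65 ± 0.09 and 1.69 ± 0.09, and a direct difference of -2.34 ± 0.10. Fabp4 differed by -1.78 ± 0.15 and Lmo1, a LIM domain transcription regulator, by -1.11 ± 0.12, again with opposite signs against vehicle. Fabp5, a binding protein that can also carry retinoic acid, differed by -1.69 ± 0.13 but was not called against vehicle with retinoic acid (-0.15 ± 0.11).

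On the other side, Aqp1 differed by 2.06 ± 0.11 (adjusted p 1.2e-12, limma), with 0.65 ± 0.09 against vehicle for retinoic acid and -1.41 ± 0.09 for rosiglitazone. Cd93, a surface protein of endothelium and myeloid cells, differed by 1.12 ± 0.09, with 0.44 ± 0.08 and -0.68 ± 0.08. Cyp26b1 differed by 4.25 ± 0.30, Lrat by 2.12 ± 0.21 and Cyp26a1 by 1.69 ± 0.23. For these 3 the rosiglitazone rats stood at -0.25, 0.01 and 0.02 against vehicle. Insig1 did not differ beyond the threshold (0.28 ± 0.13, adjusted p 0.16, limma), with 0.74 ± 0.07 against vehicle for retinoic acid and 0.46 ± 0.07 for rosiglitazone. Without day 3 the count of features was 1291. The rosiglitazone arrays of day 3 are numbered 1 to 4, unlike the rat numbers of the other days. Their median absolute deviations ran from 0.15 to 0.198, against 0.077 to 0.135 for rosiglitazone on the other days. The part of these arrays in the count was not tested further.

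Against bezafibrate, a fibrate, at 250 mkd in 19 rats (a 20th, rat 1256, was left out as doubtful, with a median absolute deviation of 0.405), 234 of 18429 features (1.27%) differed, 132 higher (0.716%) and 102 lower (0.553%) with retinoic acid. Rbp7 had the largest difference on the lower side, at -3.20 ± 0.23 (adjusted p 3.4e-10, limma), with -1.67 ± 0.18 against vehicle for retinoic acid and 1.53 ± 0.15 for bezafibrate. The other 4 largest on that side were Acot1, a cytosolic acyl-CoA thioesterase (-1.12 ± 0.21), Gpihbp1 (-1.11 ± 0.10), Fabp4 (-0.92 ± 0.13) and Lmo1 (-0.69 ± 0.10). Acot1 stood at 0.05 ± 0.21 against vehicle with retinoic acid and at 1.17 ± 0.20 with bezafibrate. Higher with retinoic acid were Cyp26b1 (3.81 ± 0.28), Lrat (2.10 ± 0.18), Cyp26a1 (1.81 ± 0.20), Trem2 (1.32 ± 0.16) and Cxcl13 (1.00 ± 0.24). Trem2 stood at 0.92 ± 0.12 against vehicle with retinoic acid and at -0.40 ± 0.10 with bezafibrate. Without day 4 the count was 87, and with the doubtful arrays kept it was 167 (105 higher, 62 lower). Mgll, higher than vehicle with both, differed by 0.05 ± 0.06 (adjusted p 0.83, limma).

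**Figure D4:**
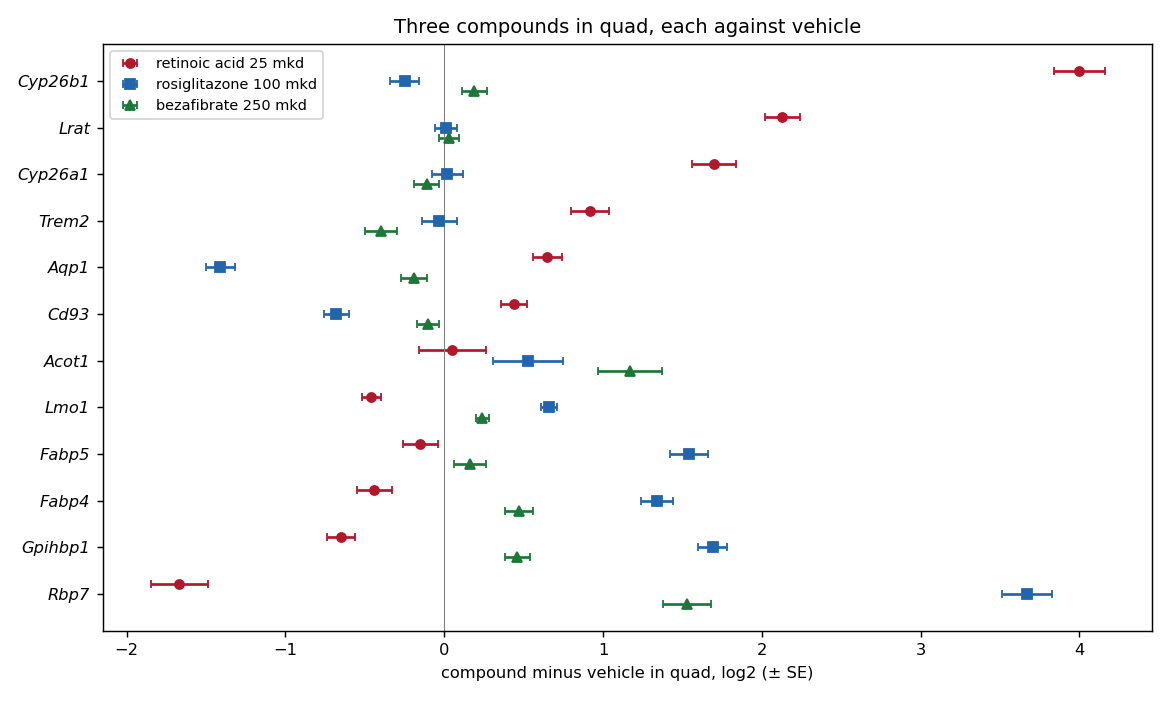
Log2 difference from vehicle in quad (horizontal axis, mean of 5 days, bars ± SE) for 12 genes with retinoic acid at 25 mkd, rosiglitazone at 100 mkd and bezafibrate at 250 mkd. Rbp7, Gpihbp1, Fabp4 and Lmo1 lay below 0 with retinoic acid and above 0 with the other 2, while the 3 compounds share the vehicle arrays.

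In soleus, the other muscle of the same dose and days, the retinoid genes moved the same way. The difference between the muscles was tested as the retinoic acid effect in quad minus that in soleus (20 retinoic acid and 32 vehicle arrays in soleus). A further 3 soleus vehicle arrays, of rats 1022, 1034 and 1061, were left out because an earlier reading of these data put them in doubt. 19 of 18362 features (0.103%) differed, 5 higher (0.0272%) and 14 lower (0.0762%) in quad. 41 rats, 17 with retinoic acid and 24 with vehicle, gave both muscles, and the fit within each rat called 238 (68 higher, 170 lower). Without day 4 no feature passed the test between separate arrays, and without the array labelled rat 1316 10 did. With all the doubtful arrays of both muscles kept, 5 passed, none of them higher in quad.

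Lrat rose in both muscles, by 2.13 ± 0.11 there and by 1.39 ± 0.10 in soleus (difference 0.74 ± 0.16, adjusted p 0.019, limma; within rats 0.60, adjusted p 0.054). That call was lost with the doubtful arrays kept (0.73, adjusted p 0.12, limma) and without day 4 (0.68, adjusted p 0.56, limma). Cyp26b1 differed by 0.01 ± 0.20 between the muscles. Cyp26a1 had 1.70 ± 0.14 in quad and 2.40 ± 0.17 in soleus, and that difference was not called (adjusted p 0.28, limma; 0.061 within rats). Rarb had 0.56 ± 0.06 in quad and 0.87 ± 0.06 in soleus, with a difference of -0.31 ± 0.09 that was called only within rats (-0.29, adjusted p 0.012, against 0.16, limma). Within rats Tgm2 (-0.30, adjusted p 0.046, limma) and Plat (-0.25, adjusted p 0.014) were also called, lower in quad. So were Map3k6 (-0.53, adjusted p 0.015, limma), Timp1 (-0.53, adjusted p 0.018) and Rara (-0.30, adjusted p 0.015). None of them was called between separate arrays. In soleus Map3k6 stood at -0.29 ± 0.17 and Timp1 at 0.16 ± 0.13, neither called. Rbp7 differed by -0.18 ± 0.25.

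Runx1, a transcription factor gene that muscle raises on denervation, and Junb, an immediate early gene, were not called in quad (-0.05 ± 0.07 and 0.11 ± 0.05) and stood at 0.67 ± 0.15 and 0.60 ± 0.11 in soleus. The differences were -0.72 ± 0.16 and -0.49 ± 0.11 (adjusted p 0.019 and 0.042, limma), and with the doubtful arrays kept only Runx1 passed (adjusted p 0.023 and 0.069). Ngfr, a neurotrophin receptor gene, rose in quad by 0.33 ± 0.05 and stood at 0.79 ± 0.10 in soleus. On the other side, Tspan8, a tetraspanin gene, was not called in quad (0.11 ± 0.07) and fell in soleus (-0.49 ± 0.11), with a difference of 0.60 ± 0.13. Aldh1a2, a retinaldehyde dehydrogenase gene, was likewise not called in quad (-0.03 ± 0.02) and fell in soleus (-0.24 ± 0.04), with a difference of 0.21 ± 0.04. Ddit4l, an inhibitor of mTOR signalling, rose in quad (0.36 ± 0.09, with an adjusted p of up to 0.2 when single arrays were left out) and stood at -0.24 ± 0.10 in soleus, with a difference of 0.60 ± 0.14. None of these 3 differences passed with the doubtful arrays kept (adjusted p 0.68, 0.1 and 0.069, limma).

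**Figure D5:**
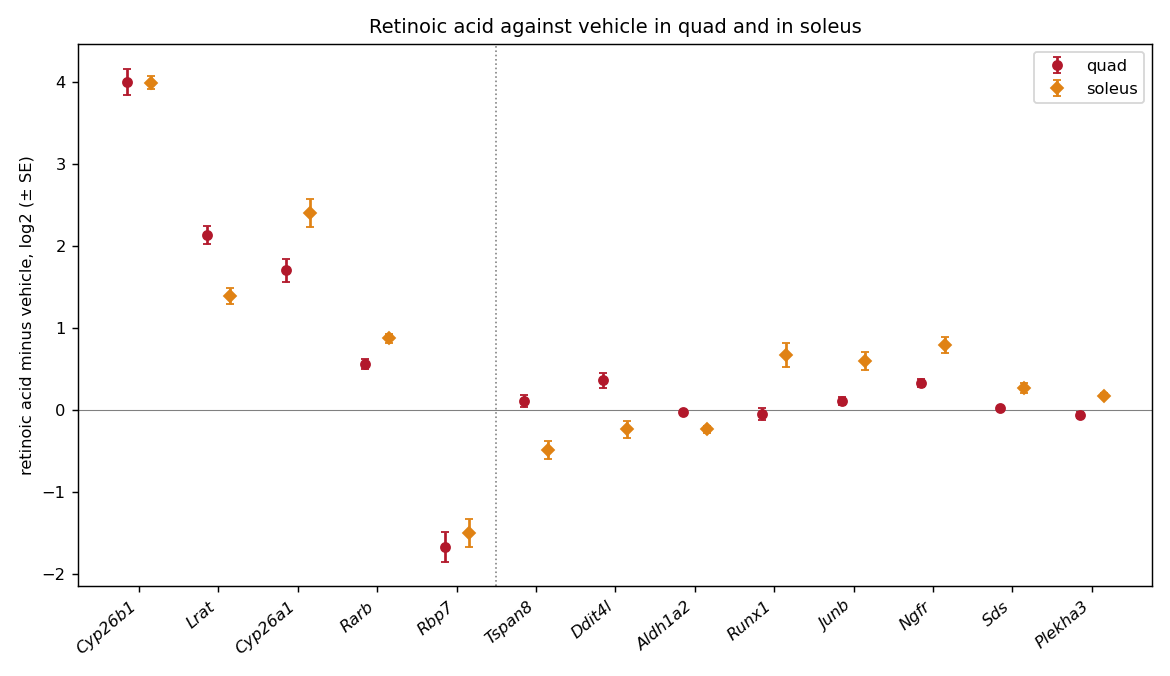
Log2 difference of retinoic acid minus vehicle (vertical axis, mean of 5 days, bars ± SE) in quad and in soleus for 5 retinoid genes and, right of the dotted line, 8 genes that differed between the muscles. Cyp26b1 stood at 4.00 in quad and 3.99 in soleus, and Runx1 at -0.05 in quad and 0.67 in soleus.

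At a lower dose of 2.5 mkd, in 11 arrays of the muscle labelled EDL, Cyp26b1 ratios to the pool were 1.63, 3.19 and 4.18 (lowest, median and highest). Lrat had 0.42, 1.02 and 1.25, Cyp26a1 -0.46, -0.03 and 1.63, and Rbp7 -1.60, -0.46 and -0.03. Dose and muscle both differ from the quad arrays, and EDL has no arrays of single vehicle rats, so no test was made.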

How the data were processed

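The authors deposited log10 ratios for 23653 probes on each of 484 arrays, 0.76% of them missing on the 78 arrays. Normalisation, scale and direction are not given in the sources used here. They were inferred from a limit at -2 and 2 and from the channels per the labels, and ratios were multiplied by 3.32 to give log2. Another base would scale all differences together. Intensities were not used, so the number of arrays limits precision. Probes of a gene were averaged (10207 genes). Features with values on at least 80% of arrays were fitted with limma 3.58.1 in R 4.3.3, with 1 mean per compound and day. P values are two-sided and adjusted by Benjamini-Hochberg over all features. The procedure was tested on simulated data. Tables were made in pandas 2.3.3 and plots in matplotlib 3.10.9 under Python 3.11.15.

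Named genes are the 10 largest rises and falls called with the same sign on 5 days, up to 4 called members of each list, a fixed set, and 5 per side for each difference. Marker genes were named after their values were seen. The members and lists were chosen with earlier results of these data known. Arrays of 1 rat number in quad and soleus come from the same animal per the labels, and their deviations correlated at a median of 0.261 over 41 rats, against -0.057 for other rats.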

Additional observations from a re-analysis of the deposited data

Results flagged for a closer look

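The retinoic acid effect differed between quad and soleus, by a test of the difference itself, for 19 of 18362 features (0.103%). Among them were 9 of the named genes. All but Lrat were named only for being among the largest differences that this test called, so that count is built in. The differences, quad minus soleus on the log2 scale, were 0.74 for Lrat, 0.60 for Tspan8, 0.60 for Ddit4l and 0.21 for Aldh1a2. They were -0.72 for Runx1, -0.49 for Junb, -0.46 for Ngfr, -0.25 for Sds (serine dehydratase) and -0.23 for Plekha3 (a PH domain protein of the Golgi). Without the array labelled rat 1316, Ddit4l, Junb, Ngfr and Sds no longer passed (adjusted p 0.051, 0.064, 0.057 and 0.057, limma). Within rats, Lrat did not pass (adjusted p 0.054, limma) and the other 8 did. With the doubtful arrays of both muscles kept, only Runx1 and Plekha3 passed (adjusted p 0.023 and 0.028, limma), and without day 4 none of the 9 did.

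2 Quad arrays outside the comparison carried a signal of hepatocyte genes. The median log2 ratio of 15 hepatocyte markers was 2.31 on the retinoic acid array of rat 1321 and 1.35 on the vehicle array of rat 1042, above the highest other Quad array of the same day (0.68 and 0.53).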

How the results depend on the processing

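Over 70 named genes and 1190 values under alternatives, 1120 kept their direction and side of the threshold, 41 lost and 14 gained a call, and 15 changed sign, all in uncalled genes. Many of these genes were named for calls in the main fit, so this agreement is partly built in. For single arrays left out, only the lowest and highest difference of each gene were counted. Against the 439 features called, array weights gave 723, the ratio to the pool without single vehicle rats 1573 (838 higher, 735 lower), and leaving out day 4 221. Leaving out single arrays gave 304 (without rat 1310) to 531 (without rat 1316). Of all 299 called features that carry a gene name, 296 stayed called without rat 1316 and 205 without rat 1310. Only 180 of them stayed called without day 2, and 151 without day 4. The slope over days had 146 calls with array weights. Against rosiglitazone 1291 features were called without day 3. Against bezafibrate 365 were called with array weights, and 87, 147 and 143 without days 4, 5 and 6. For quad minus soleus there were 50 with array weights, 35, 6, 0 and 6 without days 2, 3, 4 and 6, and 5 with the doubtful arrays kept. The replicate block, with quad and soleus paired within each rat, gave 238, and leaving out the array labelled rat 1316 gave 10. Changes of sign were as follows. Acot1 had -0.06 without day 3, -0.12 without day 4, -0.30 by the ratio to the pool, and -0.01 to 0.14 leaving out single arrays. Cpt1b had -0.06 without day 2 and -0.01 by the ratio to the pool. Ppard had -0.0042 without day 2 and -0.0021 with the doubtful arrays kept. Trim63 had -0.03 with array weights, -0.11 without day 3, -0.0042 without day 5, -0.03 by the ratio to the pool, and -0.07 to 0.15 leaving out single arrays. Mt1 had -0.03 without day 3 and -0.02 to 0.08 leaving out single arrays. The cause was not tested, except that leaving out a day or array leaves fewer arrays. Signal over background was not given, so weak probes could not be set apart. Within vehicle and retinoic acid no 2 arrays share a rat in quad, so the comparison with vehicle has no pairs. P values rest on the spread between rats.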

Other observations

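In liver, 15 arrays of the same retinoic acid dose had Cyp26b1 ratios to the pool of 4.05, 4.84 and 5.41 (lowest, median and highest), Lrat of 2.21, 2.5 and 2.93, Cyp26a1 of 2.27, 3.38 and 4.84, and Rbp7 of -0.92, -0.67 and -0.37. The Rbp7 ratios in quad, -2.77 to 0.42, spread more widely than these.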
